A study of Rattus norvegicus with 2 samples.

Results

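The genes described here take dietary fat into the enterocyte and send it out again as lipoproteins: Cd36, Fabp1, Fabp2, Rbp2, Acsl1, Apoa1, Apoa4, Apob, Apoc3 and Apobec1. They were chosen by name, and every probe set that the rat U34A array annotates to one of them was taken, which gave 10 of the 4736 genes on the array and 26 of its 8799 probe sets. Of the 26 probe sets, 21 carried 1 gene symbol and 5 were annotated to both Cd36 and Cd36l1. The series compared 2 weeks in an immobilization cage with the same 2 weeks in a metabolic cage as control. The animals were male Wistar rats aged 15 weeks in both groups. RNA of the duodenal mucosa, labelled as epithelial cells, was hybridised to 1 Affymetrix U34A oligonucleotide array for each group. No genetic change or drug is named for either group. Whether an array held RNA of 1 rat or of several pooled rats is not stated. Below, the control rat and the immobilized rat stand for these 2 samples. With 1 array per group no value has a replicate check or a p-value. The variation from rat to rat is unknown, and the small number of arrays sets the precision.

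Dietary triglyceride is split in the gut lumen, and the fatty acids enter the absorptive cells of the villus, where CD36 in the apical membrane binds long-chain fatty acids. Inside the cell, fatty acid binding proteins carry them, acyl-CoA synthetases activate them, and they are built back into triglyceride in the endoplasmic reticulum. The triglyceride is loaded onto apolipoprotein B, joined by the apolipoproteins A-I, A-IV and C-III, and leaves as chylomicrons, while retinol takes a parallel route on its own binding protein.

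Among these genes Cd36 stood apart. It was 3.37-fold lower in the immobilized rat at 1 probe set, and the other 9 genes differed by less than 1.5-fold at the probe set that represents them. With the 5 probe sets shared with Cd36l1 counted as Cd36, it was 1.78-fold lower and 0 of the 10 genes passed 2-fold. Acsl1 was 1.47-fold lower, Apoa4 1.25-fold lower and Apoa1 1.22-fold lower, whereas Rbp2, Apobec1 and Apob hardly differed, with log2 ratios of the immobilized over the control signal of -0.02, -0.08 and 0.08. All 10 genes exceeded the signal floor of 39.9 units, set at the median of all signals, in both rats. A total of 9 of them were lower in the immobilized rat and 1 was higher. In comparison, 50.6% of the 2524 genes measured in both rats were lower. Of the 98 other genes with a mean signal of at least 3000 units, a level that 7 of the 10 reached, 82.7% were lower. Quantile normalization or loess gave 7 of the 10 genes lower and 3 higher, and scaling to spike-in RNAs gave 4 lower and 6 higher. A total of 1 of the 10 genes, Cd36, was at least 2-fold lower and 0 were at least 2-fold higher. Over all genes the corresponding shares were 0.674% and 2.02%. At 1.5-fold lower the count was still 1 of 10, beside 4.87% of all genes. Their median log2 ratio was -0.18, against -0.01 over all genes. In a whole mucosa sample, fewer cells of a type and less RNA per cell cannot be told apart.

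How far probe sets of the same gene disagree can be read from genes with several probe sets. Over 696 genes and 1570 probe sets, the ratios of 1 gene's probe sets scattered with a technical SD of 0.31 on the log2 scale, and with 0.22 for those with a mean signal of at least 500 units. The Cd36 difference was 5.66 times the SD of 0.31. That of Acsl1 was 1.80 times and those of Apoa4 and Apoa1 were 1.02 and 0.92 times. Against the SD of bright probe sets, Apoa4 stood at 1.43 times and Apoa1 at 1.29 and 1.89 times over its 2 probe sets. This SD does not cover the spread between animals, nor any error that all probe sets of a gene share. The probe sets shared by Cd36 and Cd36l1 did not enter it. A single probe set can also lie far from its gene's others, as 1 of Apob did at -2.05. The labelled tissue was checked by its markers, and 23 of 24 villus enterocyte genes exceeded the floor in both rats. So did 18 of 19 exocrine pancreas genes, so the check does not show that the samples held duodenal epithelium alone. The array-wide shift between the rats depended on the reference used: spike-in RNAs had a median log2 ratio of -0.21 over 9 probe sets, and scaling to them moved the median of all genes to 0.20 and the counts at 2-fold from 51 higher and 17 lower to 102 higher and 8 lower.

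The sequences just before the start sites are shown for Cd36, the gene with the large difference, and for 3 genes whose signals differed little, Apoa4, Fabp2 and Rbp2, because the latter share letters recognised by enterocyte transcription factors. They are the 250 bases before the start site in RefSeq on the build GRCr8, plus strand, at chr4:18246332-18246581 for Cd36, chr8:55435529-55435778 for Apoa4, chr2:213724379-213724628 for Fabp2 and chr8:107963292-107963541 for Rbp2. Capitals mark matches on either strand to AAAGTNCA, the core of sites bound by HNF4, and to AGATAA, the core of sites bound by GATA factors. The matches do not overlap, and the motifs were chosen after the sequences were seen.
Cd36: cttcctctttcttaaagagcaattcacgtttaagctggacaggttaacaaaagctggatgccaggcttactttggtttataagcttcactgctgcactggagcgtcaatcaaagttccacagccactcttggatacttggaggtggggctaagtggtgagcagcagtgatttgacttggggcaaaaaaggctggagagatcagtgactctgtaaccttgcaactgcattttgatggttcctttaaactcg
Apoa4: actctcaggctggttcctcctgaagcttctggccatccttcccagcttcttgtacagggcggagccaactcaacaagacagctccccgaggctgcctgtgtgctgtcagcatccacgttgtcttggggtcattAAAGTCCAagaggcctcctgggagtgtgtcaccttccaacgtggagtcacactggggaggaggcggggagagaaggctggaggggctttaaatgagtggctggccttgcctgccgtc
Fabp2: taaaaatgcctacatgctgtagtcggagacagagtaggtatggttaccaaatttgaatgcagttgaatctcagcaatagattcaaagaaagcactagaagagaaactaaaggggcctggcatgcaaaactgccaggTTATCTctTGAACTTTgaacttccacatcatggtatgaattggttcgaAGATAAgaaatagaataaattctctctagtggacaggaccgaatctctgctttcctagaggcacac
Rbp2: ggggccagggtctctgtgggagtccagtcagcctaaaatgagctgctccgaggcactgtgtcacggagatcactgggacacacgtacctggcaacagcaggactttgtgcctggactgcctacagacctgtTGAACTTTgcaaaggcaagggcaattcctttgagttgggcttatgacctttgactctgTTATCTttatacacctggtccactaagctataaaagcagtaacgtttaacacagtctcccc

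The letters AAAGTNCA or their reverse complement were found in Apoa4 from base -117 to -110, counted from the start site, in Fabp2 from -106 to -99 and in Rbp2 from -119 to -112. AGATAA or its reverse complement was found in Fabp2 from -114 to -109 and from -66 to -61 and in Rbp2 from -61 to -56. In the same window, 4.01% of 33469 RefSeq promoters held AAAGTNCA and 10.3% held AGATAA. Promoter sequences were matched for 7 of the 10 genes, and 3 of the 7 held each motif, AGATAA also in Apobec1. Neither set of letters was in the windows of Cd36, Fabp1 and Acsl1, whose log2 ratios ran from -1.75 to -0.14. The Fabp1 window held TGATAA, which differs from AGATAA at its first base and was not counted. Across the array, the 78 measured genes with AAAGTNCA had a median log2 ratio of -0.05 and the 130 with AGATAA one of 0.01, against 0.01 for all 2141 measured genes with a promoter sequence. A match describes letters and not a bound site.

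Cd36 encodes the membrane receptor that binds long-chain fatty acids at the brush border. Its probe set AB005743_g_at had a signal of 718 units in the control rat and 213 in the immobilized rat, a log2 ratio of -1.75, rank 3 from the lowest among the 2524 genes. The immobilized rat's signal was thus low but still above the floor of 39.9. A companion probe set made from the same transcript, AB005743_at, gave 13.5 and 14.9 units, below the floor on both arrays, so it holds no information on the ratio. The large difference therefore rests on 1 probe set with Cd36 as its only symbol.

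The 5 probe sets annotated to both Cd36 and Cd36l1 were all lower in the immobilized rat, but by less. RefSeq places Cd36l1 next to Cd36 on chromosome 4, with 0 annotated genes starting between them, and how far each probe set reads one gene or the other cannot be told apart here. The probe set AF072411_g_at gave 3347 units in the control rat and 1877 in the immobilized rat. The probe set AF072411_at gave 1669.8 and 949.6 units. The pair had near-equal log2 ratios of -0.83 and -0.81. The probe set rc_AA799326_s_at gave 1453 and 685 units, a 2.12-fold lower signal. The probe set rc_AA925752_at gave 1902 and 1393 units. The probe set rc_AA946368_at gave 1709 and 1346 units, the smallest difference of the 5 at 1.27-fold. Their median log2 ratio was -0.81, and 1 of the 5 was at least 2-fold lower, beside 0.853% of all probe sets above the floor. When these probe sets were counted as Cd36, the brightest of them represented the gene at 1.78-fold lower and 0 of the 10 genes passed 2-fold. Across the 6 probe sets of both kinds above the floor, the direction was the same and the size ran from 1.27-fold to 3.37-fold.

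**Figure D1:**
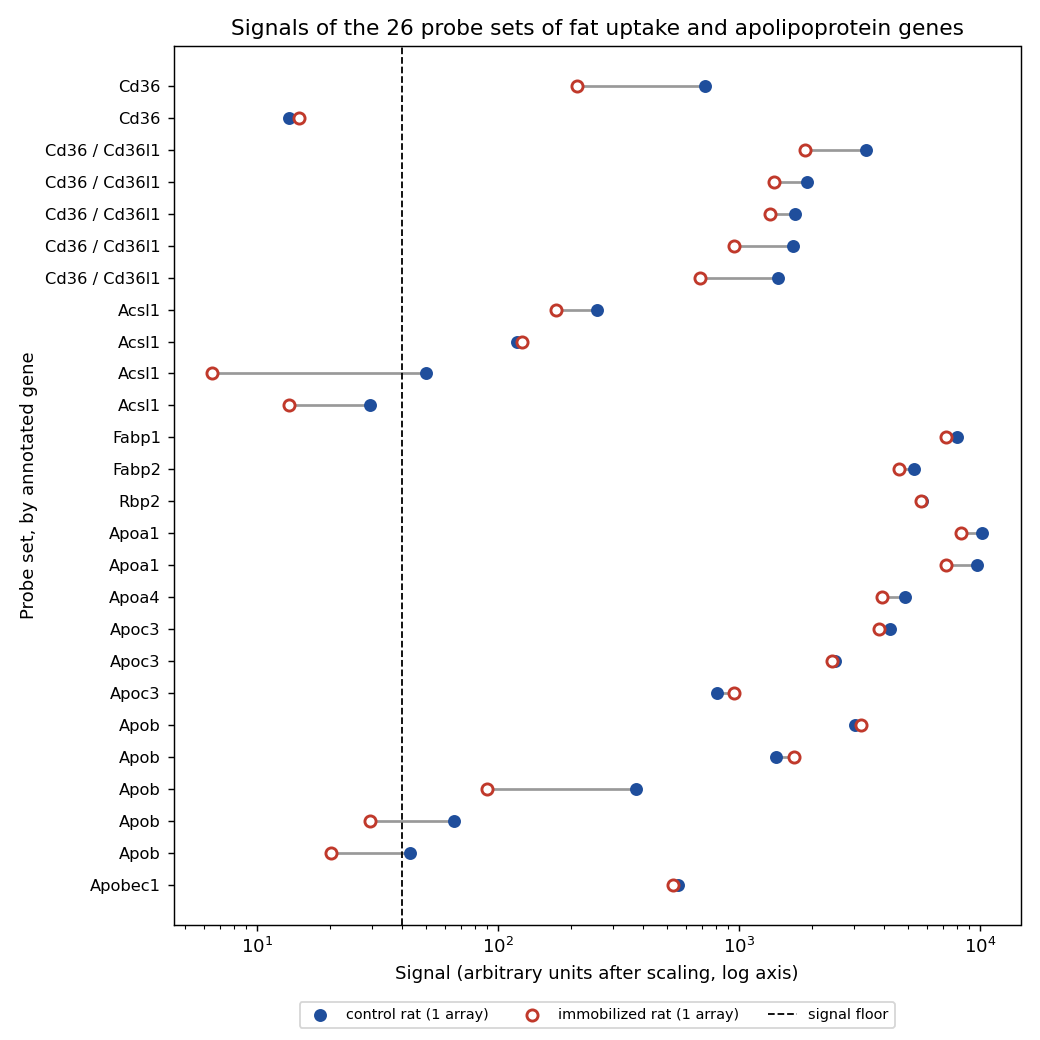
Signals of the 26 probe sets, 1 row each and labelled by annotated gene, on the control array (filled) and the immobilized rat's array (open) after scaling, on a log axis; the dashed line is the floor of 39.9 units. All 6 probe sets of Cd36 or Cd36 with Cd36l1 above the floor lie lower in the immobilized rat, while the 5 Apob probe sets go both ways.

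Acsl1 encodes a long-chain acyl-CoA synthetase, which traps fatty acids in the cell by joining them to coenzyme A. Its brightest probe set gave 257 units in the control rat and 174 in the immobilized rat, a log2 ratio of -0.56. A second probe set gave 119 and 126 units, a log2 ratio of 0.07. The signals of these probe sets therefore went opposite ways, and their mean was -0.24. Another probe set exceeded the floor in the control rat only, with 50.2 against 6.50 units, which makes it at least 1.26-fold lower. The fourth, with 29.4 and 13.6 units, was below the floor on both arrays.

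The intracellular carriers were close to equal in the 2 rats. Fabp1, the liver-type fatty acid binding protein that is also abundant in the proximal intestine, gave 7995 units in the control rat and 7231 in the immobilized rat, 1.11-fold lower. Fabp2, the intestinal form, gave 5297 and 4589 units, 1.15-fold lower. Rbp2, the cellular retinol-binding protein of the enterocyte, gave 5751 and 5667.5 units, 1.01-fold lower. Each has 1 probe set, and each difference was smaller than the technical SD. The sign of Fabp1 turned to 0.11 after quantile normalization and 0.02 after loess, and that of Rbp2 to 0.13 and 0.11. Scaled to the spike-ins, Fabp2 stood at 0.01.

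The apolipoproteins of the A-C cluster were slightly lower at their brightest probe sets in the main setting. Apoa1, Apoc3 and Apoa4 lie beside one another on chromosome 8 in RefSeq, with 0 annotated genes starting between neighbours. Apoa1 encodes the main protein of high-density lipoprotein, which the intestine makes along with the liver. Its 2 probe sets gave 10156 against 8329.8 units and 9680 against 7232 units, log2 ratios of -0.29 and -0.42. The first was the highest signal of the control array. Apoa4, which encodes an apolipoprotein made by enterocytes during fat absorption, gave 4872 and 3911 units at its only probe set, a log2 ratio of -0.32. Apoc3 encodes an inhibitor of lipoprotein lipase. Its brightest probe set gave 4216 and 3792 units, a log2 ratio of -0.15, the next gave 2496 and 2428 units, and the third gave 808 and 949 units, a log2 ratio of 0.23. Thus all 3 Apoa1 and Apoa4 probe sets were lower and the 3 of Apoc3 went both ways. After quantile normalization Apoa1 stood at -0.05, Apoa4 at -0.21 and Apoc3 at -0.04. Scaled to the spike-ins, Apoa1 stood at -0.07, Apoa4 at -0.10 and Apoc3 at 0.06.

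Apob, which encodes the scaffold protein of the chylomicron, was the gene whose probe sets disagreed most. The brightest gave 3019.5 units in the control rat and 3193 in the immobilized rat, a log2 ratio of 0.08, and the next gave 1415 and 1684 units, a log2 ratio of 0.25. The probe set U53873cds_at gave 374 units in the control rat and 90.1 in the immobilized rat, 4.15-fold lower. The dimmer remaining pair exceeded the floor in the control rat only, with 65.5 against 29.5 units and 43.2 against 20.2 units, at least 1.64-fold and at least 1.08-fold lower. The range of 2.30 in log2 ratio over its 3 probe sets above the floor was the widest of the 696 genes with several, for which the median range was 0.28. Averaged over these 3 probe sets, the log2 ratio of Apob was -0.57 in place of 0.08. Where each probe set lies on the long Apob transcript was not examined. Apobec1 encodes the deaminase that edits the Apob transcript so that the intestine makes the short form of the protein. It gave 558 units in the control rat and 529 in the immobilized rat, 1.05-fold lower, and no statement on editing can be made from these signals.

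The bright genes among the 10 had ratios like those of other genes of the same signal. Of the 10 genes, 7 had a mean signal of at least 3000 units, and 6 of the 7 were lower in the immobilized rat, with a median log2 ratio of -0.15. Of the 98 other genes that bright, 81 (82.7%) were lower, with a median of -0.16 and quartiles of -0.26 and -0.04. The limit of 3000 units was chosen after the values were seen. After quantile normalization or loess, which level the array at each signal, 7 of the 10 genes were lower and 3 higher, with medians of -0.06 and -0.08. Cd36 kept -1.80 and -1.75 under these methods.

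**Figure D2:**
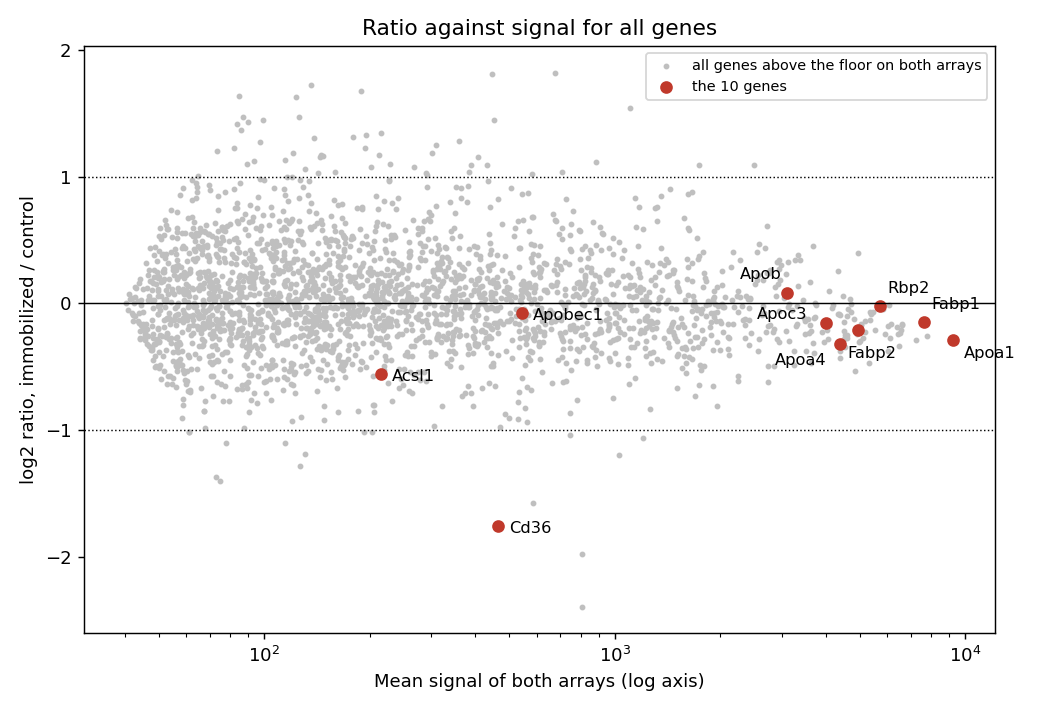
Log2 ratio of the immobilized over the control signal against the mean signal of both arrays (log axis) for the 2524 genes measured in both rats (grey) and the 10 genes (red); dotted lines mark 2-fold. Cd36 lies at -1.75, below most genes of similar signal, while the 7 genes at 3000 units or more lie among other bright genes.

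**Figure D3:**
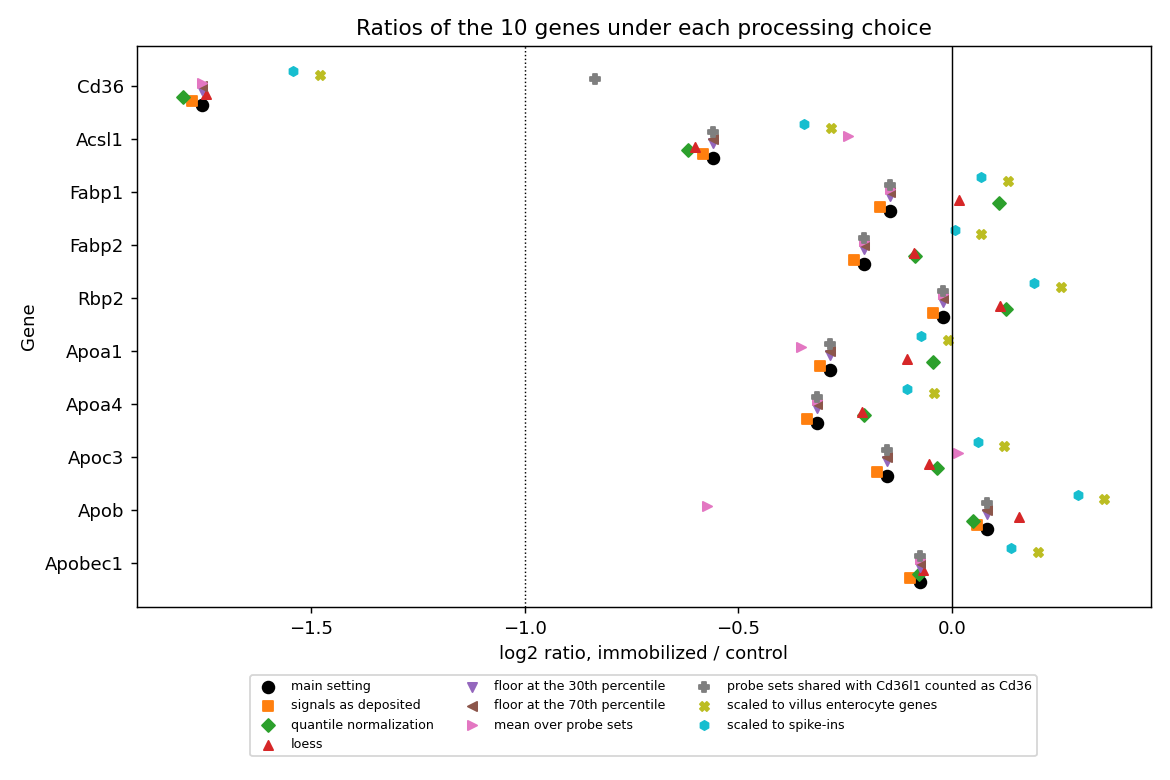
Log2 ratio of each of the 10 genes (rows) under the main setting and 9 other processing choices (symbols); the dotted line marks 2-fold lower. Cd36 lies between -1.80 and -1.48 except when the probe sets shared with Cd36l1 are counted (-0.83), Apob moves to -0.57 when its probe sets are averaged, and Fabp1, Fabp2, Rbp2, Apoc3 and Apobec1 lie on both sides of 0.

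Other genes of fatty acid carriage and activation did not share the low ratio of Cd36. The list held 30 genes, of which 24 are on the array and 14 could be measured in both rats, 7 lower and 7 higher, with a median log2 ratio of 0.03. The 1 gene at 2-fold was Slc27a2, which encodes a fatty acid transport protein with acyl-CoA synthetase activity, at 184 units in the control rat and 420 in the immobilized rat, 2.28-fold higher. Acsl5, another intestinal acyl-CoA synthetase, had log2 ratios of -0.16 and 0.11 at its 2 probe sets, Acsl3 had -0.04 and Acsl4 0.09. Of the carriers, the ileal bile acid binding protein Fabp6 had -0.19, the epidermal form Fabp5 0.15, the acyl-CoA binding protein Dbi 0.17, the sterol carrier Scp2 -0.21, Got2, which also binds fatty acids at the plasma membrane, 0.23, and the fatty acid transporter Slc27a1 0.17. Scarb1 and Scarb2, of the same receptor family as CD36, had log2 ratios of -0.05 (down to -0.31 over 3 probe sets) and -0.42 (-0.43 at its second). The acyl-CoA hydrolase Acot7 had 0.45, but -0.37 and 0.23 at other probe sets, and the retinol dehydrogenase Rdh7 had -0.57.

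Genes of triglyceride and lipoprotein assembly were also near 0. The list held 45 genes, of which 24 are on the array and 10 could be measured in both rats, 6 lower and 4 higher, 0 of them at 2-fold, with a median of -0.11 that became 0.01 after quantile normalization or loess. Dgat1, which completes triglyceride synthesis, gave 5430.4 units in the control rat and 4921 in the immobilized rat, a log2 ratio of -0.14. P4hb, the shared subunit of the microsomal triglyceride transfer protein, had -0.09 (-0.28 to -0.09 over 3 probe sets). Plin2, which coats lipid droplets, gave 2836 and 3332 units, a log2 ratio of 0.23. The lysosomal lipase Lipa had -0.50, with -0.62 to -0.46 over 3 probe sets, all lower. Apoe had -0.18, the lipase Lipe -0.15 (0.19 at a second probe set) and Pcyt1a of phosphatidylcholine synthesis -0.14. Acat2, an acetyl-CoA acetyltransferase that the list held although it is not itself an assembly enzyme, had 0.08. Hnrnpab, an RNA-binding protein linked to Apob editing, had 0.17 and clusterin, Clu, 0.64. Apoc1, Apoa2, Apom and Lpl were below the floor on both arrays.

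Transcription factors that act on these genes were more often higher than lower, 13 against 7 of the 20 above the floor on both arrays, 0 of them at 2-fold, with a median of 0.13. With the floor at the 70th percentile, 5 were higher and 4 lower, and the median was 0.12. Hnf4a, the nuclear receptor whose recognition letters are capitalised above, had log2 ratios of -0.03, 0.02 and -0.62 over 3 probe sets, and thus gave no single direction. Gata4 had 0.38 (0.27 at a second probe set) and Gata6 -0.14. The fatty acid receptors of the PPAR family had -0.25 for Ppara, 0.39 for Pparg and -0.61 for Ppard, the last with 0.79 and -0.09 at other probe sets. Their partners had 0.92 for Rxra, -0.85 for Rxrb and 0.11 for Rxrg, all with signals of at most 86.7 units. The oxysterol receptors Nr1h3 and Nr1h2 had -0.47 and 0.13, the bile acid receptor Nr1h4 0.39 and its target Nr0b2 0.55. The remaining values were 0.70 for Nr2f6, 0.70 for Cebpb, 0.66 for Srebf1, 0.31 for Cebpa, 0.12 for Rara (0.95 at a second probe set) and 0.00 for both Foxa3 and Cdx1.

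PPAR factors are known to induce genes of fatty acid use, among which Cd36, Fabp1 and Acsl1 are often counted. Of 21 other such genes measured in both rats, 12 were higher and 9 lower, with a median of 0.05. The 4 farthest from 0 were all higher: Decr1 (2.92-fold), Slc22a5 (2.05-fold), Eci1 (2.01-fold) and Cat (1.96-fold). Second probe sets had log2 ratios of 0.49 for Eci1 and 0.07 for Cat. Cd36, Fabp1 and Acsl1 lay on the lower side in the same pair of arrays, as did 9 of the 21, at -1.75, -0.14 and -0.56. Fabp1 turned to 0.11 after quantile normalization and 0.02 after loess, and a second Acsl1 probe set had 0.07. A link of these values to PPAR factors was not tested.

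**Figure D4:**
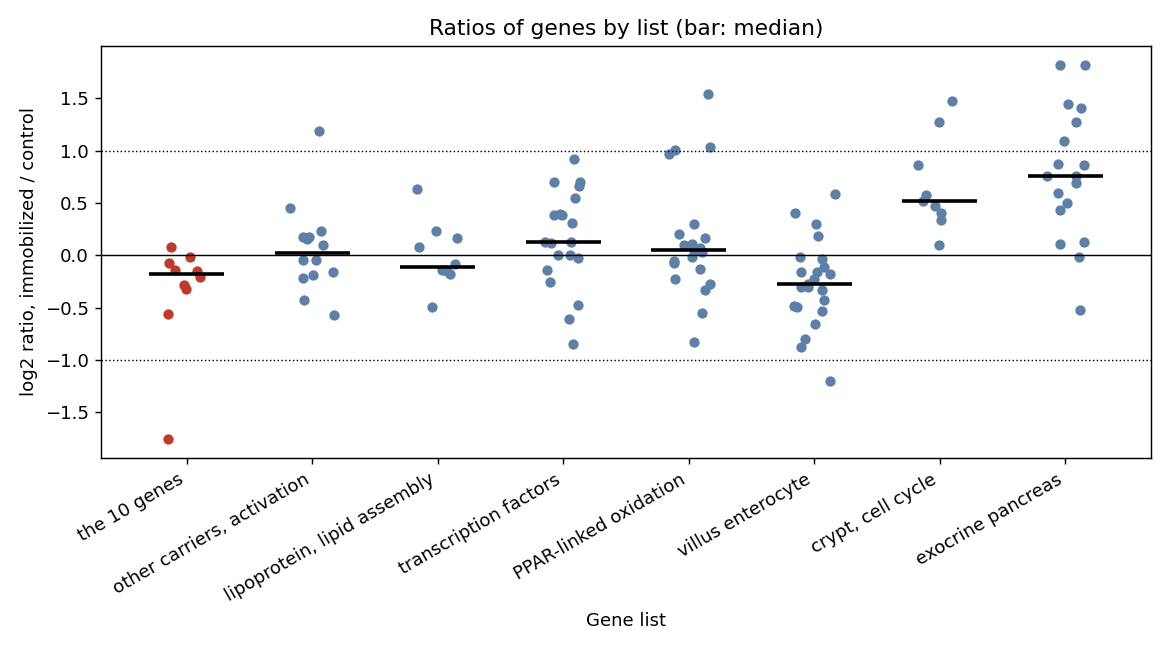
Log2 ratio of each gene measured in both rats (points) for the 10 genes and 7 other lists, with the median of each list as a bar; dotted lines mark 2-fold. Medians run from -0.28 for villus enterocyte genes and -0.18 for the 10 genes to 0.52 for crypt and cell cycle genes and 0.76 for exocrine pancreas genes.

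Markers of cell types also differed between the rats, in directions that depended on the list. Of 23 other villus enterocyte genes measured in both rats, 19 had a lower signal in the immobilized rat. The share lower was 50.6% over all genes and 82.7% over the 98 genes outside the 10 with at least 3000 units. The villus list had a median log2 ratio of -0.28. The median was -0.19 after quantile normalization and after loess, with 17 and 18 of the 23 lower. The summed signal of all 24 on the array was 65708 units in the control rat and 55873 in the immobilized rat. The farthest from 0 were Ggt1 (-1.20), Maoa (-0.87), Enpep (-0.80) and Aqp7 (-0.65). Relative to this list's median in the main setting, Cd36 was at -1.48, Acsl1 at -0.28, Apoa4 at -0.04, Apoa1 at -0.01 and 6 of the 10 genes were above 0. Crypt and cell cycle markers were higher for 9 of 9, led by Cdk4 (1.47), Ccnb1 (1.27) and Prim1 (0.86), and the summed signal of all 14 on the array was 1501 and 2127 units. Exocrine pancreas markers were higher for 16 of 18, led by Ctrb1 (1.82) and Sycn (1.81), and the summed signal of all 19 on the array was 9711 and 15722 units. No marker in these 3 lists had a signal of 0. The part of these shifts in the values of the 10 genes was not tested.

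Cd36 is also made by capillary endothelium, fat cells and macrophages, and many markers of these cells were under the floor. Of 12 endothelial genes with a probe set, 2 exceeded the floor on both arrays, Nos3 at -0.67 (-0.13 at a second probe set) and Thbd at 0.34. A further 4 did so in the control rat only, and the summed signal of the 12 was 526 and 456 units. The 4 were Gja4, at least 2.53-fold lower, Selp, Flt1 and Edn1. With the floor at the 30th percentile, 6 of 8 endothelial genes were lower, with a median log2 ratio of -0.51. Pecam1, Vwf and Kdr were below the floor on both. Of 7 fat cell genes 3 exceeded it on both, Lep at -0.30, Lipe at -0.15 and Pparg at 0.39, while Fabp4, Plin1, Cfd and Slc2a4 were below it. The other Lep probe sets were below the floor on both arrays, and a second Lipe probe set had 0.19. The summed signals of the fat cell genes were 1639 and 1438 units, most of them from Lep and Lipe. Of 7 macrophage genes 3 did, Cd14 at -0.52, C1qb at 0.43 and Lyz2, which Paneth cells also make, at 1.03. The summed signals of the 7 were 959.8 and 1534 units, and 494.8 and 581 units without Lyz2. None of these markers was at 0, and their part in the Cd36 value was not tested.

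The 5 genes with the log2 ratio nearest to that of Cd36, over the 2 arrays, were Gpd2, the mitochondrial glycerol-3-phosphate dehydrogenase, at -1.58, Reg3g, an antibacterial lectin, at -1.98, Serpinb5 at -1.40, Rbfox2 at -1.37 and Lama3 at -1.28. Gpd2 gave 877 units in the control rat and 294 in the immobilized rat. Likeness here means a single ratio and carries no evidence of a shared pattern.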

How the data were processed

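RNA of the duodenal mucosa of control and immobilized rats was measured on 1 rat U34A array per group, and sample titles gave the groups. Whether RNA of several rats was pooled is not stated. The authors deposited a linear signal intensity for each probe set. It was made with MAS5, per the submitters' processing notes, or with version 4.0 of the manufacturer's software, per the design text, and which of them applies is unsettled. Detection calls were not used here.

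Signals of the immobilized rat were scaled by 1.016, which set the median log2 ratio to 0, with a floor at the 50th percentile of all signals, 39.9. Log2 ratios were taken where both arrays exceeded it, and a probe set above it on 1 array only has a bound, its signal over the floor. Symbols came from the array annotation and were updated through the gene ID for 6985 of 7006 probe sets with 1 symbol. The probe set of highest mean signal stands for a gene, and probe sets with several symbols enter no gene value.

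Alternatives were the signals as deposited, quantile normalization, floors at the 30th or 70th percentile, loess with a span of 0.3, averaged probe sets, other fold thresholds (1.5 and 3) and counting bounds. Scaling to spike-ins or to villus enterocyte genes and counting the probe sets shared with Cd36l1 were added after seeing the data. With 1 array per group no test was possible. The genes and lists were chosen with earlier results of these data known. The naming rule covers the 10 genes, the 5 nearest to Cd36, and those above the floor in the carrier, assembly and transcription factor lists. It also covers up to 4 genes at 1.5-fold or more in each other list, not all of them named above. Lists of goblet and Paneth, enteroendocrine, smooth muscle, lymphocyte, erythroid and hepatocyte markers were also made and are not described above. Genes named as below the floor, and the markers of endothelium, fat cells and macrophages under 1.5-fold, were picked after their values were seen. The 2-fold threshold was tried on simulated log2 ratios with random noise of the technical SD. That trial did not include the floor, the choice of probe set or variation between rats. Python 3.11.15, numpy 2.4.6, pandas 2.3.3, statsmodels 0.14.6 and matplotlib 3.10.9 were used.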

Additional observations from a re-analysis of the deposited data

How the results depend on the processing

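Cd36 was the gene at least 2-fold lower under each alternative that kept the threshold, except that 0 of the 10 genes passed when the probe sets shared with Cd36l1 were counted as Cd36. At the 1.5-fold and 3-fold thresholds the count of the 10 genes was 1. Over 10 settings the median log2 ratio of the 10 genes ranged from -0.23 with probe sets averaged to 0.095 when scaled to villus enterocyte genes, and the sign also turned, to 0.03, when scaled to the spike-ins. Set against the median of all genes under the same scaling, it was -0.17 in the main setting, -0.16 with either of these scalings, -0.07 after loess and -0.03 after quantile normalization. The count of all genes at 2-fold, 68, became 177 with the floor at the 30th percentile, 31 at the 70th, 334 at 1.5-fold, 9 at 3-fold, 131 scaled to villus enterocyte genes and 110 scaled to spike-ins. Among these the share of higher genes was 75% in the main setting, 59.9% with the floor at the 30th percentile, 63.2% at 1.5-fold, 93.1% scaled to villus genes and 92.7% scaled to spike-ins. Of the 73 other genes that the naming rule covers, 8 moved by more than the technical SD under some alternative and 0 of those at 2-fold changed sign. Signal over background limits the dim probe sets of Acsl1 and Apob. No paired analysis was possible because each group has 1 array.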

Other observations

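The array holds 906 pairs of probe sets made from one transcript accession and named alike apart from a suffix, like the pair for Cd36. In 435 pairs both members exceeded the floor in both rats, and their median absolute difference in log2 ratio was 0.19. In 163 pairs, that of Cd36 among them, one was above the floor on both arrays and the other on neither.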
